A study of Mus musculus with 28 samples.

Results

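The 10 genes described here, Cst7, Itgax, Spp1, Clec7a, Lpl, Lgals3, Gpnmb, Ch25h, Lyz2 and Fabp5, are widely used as markers of disease-associated microglia. They were chosen by symbol from the deposited table of raw read counts, and all 10 were found among its 24391 gene symbols. The mice carried Cx3CR1-Cre with the allele labelled TRAPfl, in every group. TRAP, translating ribosome affinity purification, pulls down tagged ribosomes with the mRNA bound to them. Cre is driven by the promoter of Cx3cr1, which in brain marks microglia and also border-associated macrophages and some blood-derived myeloid cells, so the tag is not limited to microglia. Motor cortex was taken from 7 mice that had spent 1 h on a rotarod (run) and from 7 home cage mice. Each of the 14 mice gave a TRAP library and a total lysate library, 28 in all. Each housing group held 3 mice of cohort 2 and 4 of cohort 1, where cohort is the batch number in the labels, and 4 females and 3 males. Ages were not given in the sources used here.

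Disease-associated microglia are a state described around amyloid plaques, damaged myelin and dying neurons, which microglia enter in part through the lipid receptor TREM2. Cells in this state lower homeostatic genes such as Cx3cr1, P2ry12 and Tmem119 and raise genes for lipid handling, lysosomal digestion, adhesion and secreted signals. The mice here carried no disease allele in the labels, so the levels below are those of these markers in cortex without such a model.

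Run TRAP libraries totalled 104598915 to 241381845 counts and home cage TRAP libraries 104405588 to 157669964; run lysate libraries totalled 70090518 to 179477632 counts and home cage lysate libraries 84399875 to 169315558. The label's cell type was checked on its markers: each of 12 homeostatic microglia genes exceeded its lysate level in TRAP, with a median log2 fold of 6.42, and each of 8 border-associated macrophage genes did so too, with a median of 6.32. Their summed level in TRAP was 16991 to 36269 CPM (counts scaled to a common library size by TMM) for homeostatic microglia and 757 to 1630 CPM for border-associated macrophages. Monocyte and neutrophil genes summed to 5.23 to 19.9 CPM in TRAP, with Camp and Chil3 at 0 in all 14 TRAP libraries, and 3 of 5 tested genes of that list were higher and 1 was lower in TRAP. Dendritic cell genes summed to 41.6 to 174 CPM in TRAP, and 5 of 7 were higher. Endothelial genes, of cells outside the myeloid lineage, summed to 155 to 709 CPM in TRAP and 34.5 to 101 CPM in lysate, and all 8 were higher in TRAP with a median log2 fold of 2.38, from 1.16 for Slco1a4 to 3.02 for Pecam1; their part in the ratios below was not tested. The level of Y-linked genes matched the labelled sex in 24 of 28 libraries; the other 4 came from male 1 and female 2 of the run mice of cohort 2.

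Windows before the gene start given by RefSeq, build GRCm38.p6, were available for 8 of the 10 genes: Cst7, Itgax, Spp1, Clec7a, Lgals3, Gpnmb, Ch25h and Lyz2. The 250 bases upstream were searched on both strands for GGAAGT (the ETS core bound by PU.1, a factor of the myeloid lineage), for TGANTCA (AP-1) and for CACGTG (the E-box of MITF and TFE factors). GGAAGT occurred in 20.0% of 27025 promoter windows of this length and in 4 of the 8 genes, TGANTCA in 6.87% and in Itgax alone of the 8, and CACGTG in 6.05% and in 0 of the 8. The windows of Cst7, Lyz2 and Itgax, far higher in TRAP, are shown beside that of Spp1, which was not called, so that they can be compared; each is given 5′ to 3′ on the strand of the gene; capitals mark matches to GGAAGT or its complement ACTTCC and to TGANTCA, which did not overlap.
Cst7, chr2:150570165-150570414, plus strand: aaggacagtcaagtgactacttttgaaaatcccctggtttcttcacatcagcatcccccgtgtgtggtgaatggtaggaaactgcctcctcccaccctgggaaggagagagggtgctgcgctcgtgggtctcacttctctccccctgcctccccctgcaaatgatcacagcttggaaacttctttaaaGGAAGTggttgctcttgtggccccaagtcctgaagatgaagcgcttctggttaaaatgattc
Lyz2, chr10:117282273-117282522, minus strand: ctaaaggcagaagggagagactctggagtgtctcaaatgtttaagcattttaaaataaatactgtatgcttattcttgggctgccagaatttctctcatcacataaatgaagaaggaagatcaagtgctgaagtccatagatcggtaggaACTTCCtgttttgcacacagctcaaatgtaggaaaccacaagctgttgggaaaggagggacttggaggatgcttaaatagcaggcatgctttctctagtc
Itgax, chr7:128129300-128129549, plus strand: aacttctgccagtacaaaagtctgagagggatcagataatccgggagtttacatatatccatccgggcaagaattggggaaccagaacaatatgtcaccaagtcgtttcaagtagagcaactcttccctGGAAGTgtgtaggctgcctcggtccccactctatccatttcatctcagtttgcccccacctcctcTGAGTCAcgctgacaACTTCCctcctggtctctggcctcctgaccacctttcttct
Spp1, chr5:104434861-104435110, plus strand: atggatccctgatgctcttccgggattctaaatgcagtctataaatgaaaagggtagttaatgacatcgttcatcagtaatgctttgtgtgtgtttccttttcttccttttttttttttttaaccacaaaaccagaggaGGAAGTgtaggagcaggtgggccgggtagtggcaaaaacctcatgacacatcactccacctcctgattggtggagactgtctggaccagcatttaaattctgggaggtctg
A match to GGAAGT lay in the window of Spp1 as well as in those of Cst7, Lyz2 and Itgax. No match to any of the 3 motifs lay in the windows of Clec7a and Lgals3, which were also far higher in TRAP. The Lgals3 window, chr14:47373610-47373859 on the plus strand, lay inside the GENCODE M21 span of the gene, chr14:47367751-47386160. The bases before the GENCODE start of Lgals3 were therefore not searched. These letters describe the windows and do not show binding.

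TRAP and lysate libraries were compared to give the level of each gene in the ribosome pulldown relative to total lysate. The ratio does not show which genes tagged ribosomes carried, and a fold near 0 does not show absence from tagged cells. The log2 fold was the edgeR estimate with cohort as a term, and a gene was called at an adjusted p under 0.05 by edgeR's quasi-likelihood test. Of the 10 genes, 5 were higher in TRAP (Cst7, Lyz2, Lgals3, Clec7a and Itgax), 1 was lower (Fabp5) and 4 were not called (Ch25h, Spp1, Lpl and Gpnmb). Of all 16716 genes tested, 34.0% were called higher and 40.1% lower, so a call in either direction, at 74.0% of genes, was common, and the size of the fold carries more than the call. The TRAP and lysate libraries did not overlap for 6 of the 10 genes, beside 16.3% of all genes tested. The median log2 fold was 2.83 over the 10 genes and -0.20 over all genes tested. In bulk libraries, fewer cells of a type and less RNA per cell cannot be told apart.

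**Figure D1:**
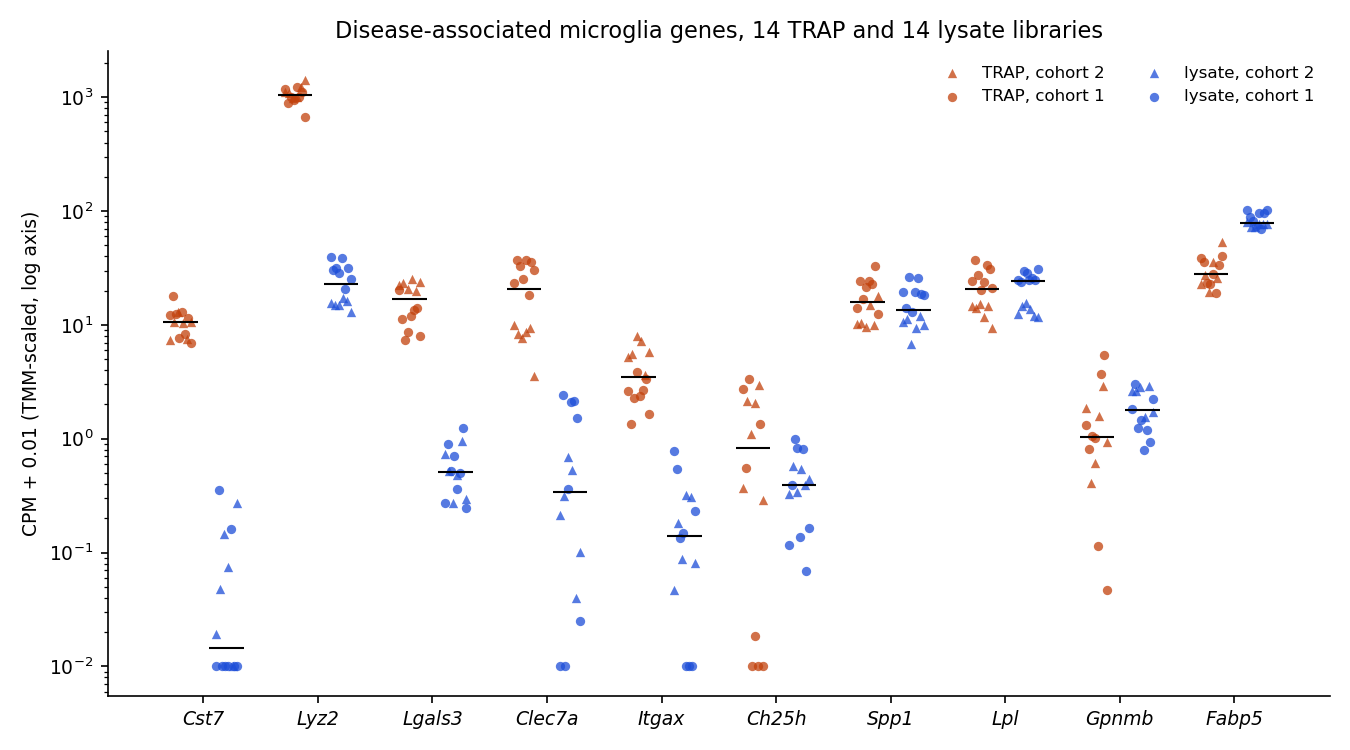
Level of each gene in every library, in CPM scaled by TMM plus 0.01, on a log axis; TRAP left, lysate right; triangles are cohort 2, circles cohort 1, and bars are medians of 14 libraries. The TRAP and lysate libraries of Cst7, Lyz2, Lgals3, Clec7a, Itgax and Fabp5 do not overlap, while those of Ch25h, Spp1, Lpl and Gpnmb do.

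The lysosomal and digestive genes gave the widest ratios. Lyz2 (chr10:117277331-117282321, minus strand) encodes lysozyme, a bacteria-digesting enzyme of macrophages. Gene positions are those of GENCODE M21 on GRCm38 throughout. The TRAP level of Lyz2 was 670 CPM at the lowest, 1042 at the median and 1415 at the highest of 14 libraries, against 13.0, 22.9 and 39.7 CPM in lysate. Every TRAP library was above every lysate library, and the ratio within a mouse ran from 26.4 to 109. The log2 fold was 5.53 ± 0.17 (SE, n = 14 libraries each), with an adjusted p of 1.2e-22 by edgeR's quasi-likelihood test. Per kb of exon, Lyz2 was at 805 CPM in TRAP, above 99.7% of 16047 genes, against 18.4 CPM per kb in lysate.

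Lyz1 lies beside Lyz2 on chromosome 10 and codes for a close relative, lysozyme P of the gut. Of 444 coding bases in the GENCODE M21 transcripts, 22 differed, and the longest identical run was 118 bases. The stretch from base 61 to base 120 of the coding sequence, counted from the A of the start codon, is shown since it holds 9 of these differences; capitals mark the bases that differ.
Lyz2: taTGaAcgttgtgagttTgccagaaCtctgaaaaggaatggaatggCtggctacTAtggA
Lyz1: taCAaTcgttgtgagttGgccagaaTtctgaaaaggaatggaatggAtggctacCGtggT
Lyz1 averaged 0.711 ± 0.479 CPM in TRAP and 0.0760 ± 0.218 CPM in lysate (SD, n = 14 each), with 6 lysate libraries at 0. How reads that match both genes were counted is not given in the sources used here, so the level of Lyz1 is uncertain.

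Cst7 (chr2:150570415-150578944, plus strand) encodes cystatin F, an inhibitor of lysosomal cathepsins. In TRAP its lowest, median and highest levels were 6.91, 10.5 and 17.9 CPM, against 0, 0.00462 and 0.341 CPM in lysate, where 7 of 14 libraries held no count. A count of 0 allows up to 3 counts, which is 0.0148 to 0.0380 CPM in those libraries. The groups did not overlap. The log2 fold was 7.18 ± 0.62 (SE, adjusted p 9.5e-12, edgeR), the widest of the 10, and its size rests on few lysate counts: it was 7.84 without the 2 mice whose Y-linked level went against the label and 8.06 with the mouse as a block. The cathepsins that cystatin F acts on were also higher in TRAP, Ctsc with a log2 fold of 5.50, Ctsh 5.20 and Ctsl 2.83.

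Surface receptors and adhesion genes followed. Clec7a (chr6:129461591-129472779, minus strand) encodes dectin-1, a receptor for fungal glucans that signals through SYK. Its TRAP levels were 3.56 CPM at the lowest, 20.7 at the median and 37.1 at the highest, against 0, 0.329 and 2.39 CPM in lysate, with 2 lysate libraries at 0 (up to 0.0248 and 0.0309 CPM allowed). No libraries of the fractions overlapped, and the log2 fold was 4.78 ± 0.56 (SE, adjusted p 7.2e-09, edgeR; 5.49 with the mouse as a block). All 5 genes of dectin-1 signalling were higher in TRAP, with a median log2 fold of 5.32: Card9 5.42, Plcg2 5.40 and Syk 5.32 were widest, and Bcl10 at 2.04 and Malt1 at 1.98 narrowest. Clec7a is annotated in GENCODE M21 as a polymorphic pseudogene.

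Itgax (chr7:128129547-128150657, plus strand) encodes CD11c, an integrin chain of dendritic cells and activated microglia. TRAP libraries held 1.33 CPM at the lowest, 3.49 at the median and 7.90 at the highest, against 0, 0.131 and 0.777 CPM in lysate, where 3 libraries were at 0 (0.0253 to 0.0380 CPM allowed). The fractions did not overlap. The log2 fold was 4.26 ± 0.57 (SE, adjusted p 7.6e-08, edgeR), 5.14 with the mouse as a block and 4.95 in run mice alone. Its partner chain Itgb2 had a log2 fold of 6.56 ± 0.22. Of 7 dendritic cell genes 5 were called higher, Xcr1 and Cd209a among them, with a median log2 fold of 2.58 over the 7, while Flt3 was at -0.14 ± 0.17 and Zbtb46, a factor of the dendritic lineage, at -0.61 ± 0.28 (adjusted p 0.0528, edgeR), neither of them called. Their part in the Itgax ratio was not tested.

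Lgals3 (chr14:47367751-47386160, plus strand) encodes galectin-3, a galactose-binding lectin secreted by activated macrophages. It measured 7.32, 16.9 and 25.3 CPM at the lowest, median and highest TRAP library, against 0.237, 0.502 and 1.22 CPM in lysate. The fractions did not overlap, and the log2 fold was 4.80 ± 0.28 (SE, adjusted p 7.1e-16, edgeR). The 4 genes listed beside it as galectin partners were all higher in TRAP. Their log2 folds ran from 1.83 for Lgals1 to 5.99 for Lgals9, with Lgals3bp at 3.74 and Lgals8 at 1.84.

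Spp1 and Lpl were nearly equal in both fractions. Spp1 (chr5:104435118-104441050, plus strand) encodes osteopontin, a secreted matrix protein. Its TRAP libraries held 9.53 CPM at the lowest, 15.9 at the median and 32.7 at the highest, against 6.74, 13.6 and 26.1 CPM in lysate. The fractions overlapped, TRAP was above lysate in 7 of 14 mice, and the log2 fold was 0.19 ± 0.13 (95% interval -0.086 to 0.46, adjusted p 0.207, edgeR). Of the 7 osteopontin receptor chains, 4 were higher in TRAP (Itgb5 5.67, Itgb3 3.92, Itga9 3.54 and Itgb1 2.53). Cd44 at 0.52 ± 0.32, Itga4 at 0.30 ± 0.24 and Itgav at 0.14 ± 0.16 were not called. Spp1 shares 309 exon bases with the same-strand transcript Gm42793, which has no row in the count table.

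Lpl (chr8:68880491-68907448, plus strand) encodes lipoprotein lipase, which frees fatty acids from lipoproteins. It measured 9.39, 20.6 and 36.8 CPM at the lowest, median and highest TRAP library, against 11.8, 24.3 and 30.8 CPM in lysate. The level was above lysate in 5 of 14 mice and below it in 9, and the log2 fold was 0.012 ± 0.095 (95% interval -0.18 to 0.21, adjusted p 0.918, edgeR). The upper end of this interval is far below the ratios of Lyz2 and Lgals3. Lmf1 and Sel1l, which help the enzyme mature in the endoplasmic reticulum, were higher in TRAP, with log2 folds of 1.54 and 0.32.

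Gpnmb (chr6:49036546-49070929, plus strand) encodes a transmembrane glycoprotein of lysosome-rich cells, and was both low and uneven. It ranged from 0.0365 to 5.48 CPM in TRAP with a median of 1.03, against 0.785 to 3.00 CPM with a median of 1.77 in lysate. The log2 fold was -0.36 ± 0.43 (adjusted p 0.455, edgeR), and TRAP was below lysate in 11 of 14 mice. In home cage mice alone it was -1.13 with an adjusted p of 0.0204, and in run mice alone 0.33 with 0.718. MITF-family factors, which act on Gpnmb in pigment cells and macrophages, were all higher in TRAP: Tfec 4.92, Tfeb 2.88, Tfe3 2.19 and Mitf 2.16.

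Ch25h (chr19:34473778-34475164, minus strand) encodes cholesterol 25-hydroxylase, the enzyme that makes 25-hydroxycholesterol. Its TRAP libraries ran from 0 to 3.36 CPM with a median of 0.817 and 3 at 0 (0.0267 to 0.0334 CPM allowed), against 0.0590 to 0.979 CPM with a median of 0.383 in lysate. The log2 fold of 1.40 ± 0.76 was not called (adjusted p 0.0955, edgeR), and it was 0.28 with the mouse as a block. It was called without home cage male 2 of cohort 1 (1.62, adjusted p 0.0482) and without run female 2 of cohort 1 (1.75, adjusted p 0.0335), 2 mice whose TRAP library held 0 counts of Ch25h. Gpr183, the receptor for the oxysterol made downstream, was higher in TRAP at 5.90, as was Hsd3b7 at 1.10, while Cyp7b1, the next enzyme, was lower at -1.36. Ch25h shares 159 exon bases with the antisense Gm26902, and strand setting is not given in the sources used here.

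Fabp5 (chr3:10012548-10016607, plus strand), a fatty-acid binding protein of neural and myeloid cells, was lower in TRAP. It held 19.0, 27.8 and 53.2 CPM at the lowest, median and highest TRAP library, against 69.5, 79.1 and 103 CPM in lysate. Every TRAP library was below every lysate library, and the ratio within a mouse ran from 0.272 to 0.693. The log2 fold was -1.45 ± 0.12 (SE, adjusted p 6.4e-12, edgeR), beside a median of -1.41 for 8 neuronal genes, all of them lower in TRAP. Fabp7, a relative of astrocytes and neural progenitors, was at -1.63 ± 0.11, and Fabp3, a relative of muscle and neurons, at -1.93 ± 0.11.

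Per kb of exon the order in TRAP was Lyz2 (805 CPM per kb), Cst7 10.8, Spp1 10.5, Lgals3 8.85, Fabp5 8.53, Clec7a 7.80, Lpl 2.03, Ch25h 0.866, Itgax 0.821 and Gpnmb 0.238. From Cst7 to Clec7a the spread between libraries was larger than the steps between neighbours. The order differed between cohorts: Lgals3 stood second in cohort 2 at 12.2 ± 1.10 CPM per kb (SD, n = 6) and sixth in cohort 1 at 6.37 ± 2.25 (SD, n = 8). Clec7a was at 3.01 ± 0.868 in cohort 2 and 11.4 ± 2.68 in cohort 1. Itgax was above Ch25h in cohort 2 (1.22 ± 0.317 and 1.06 ± 0.771) but below it in cohort 1 (0.521 ± 0.170 and 0.718 ± 0.974), a change within the spread of Ch25h. In lysate the order was Fabp5 23.3, Lyz2 18.4, Spp1 9.30 and Lpl 2.00, with the other 6 at 0.309 CPM per kb or less.

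**Figure D2:**
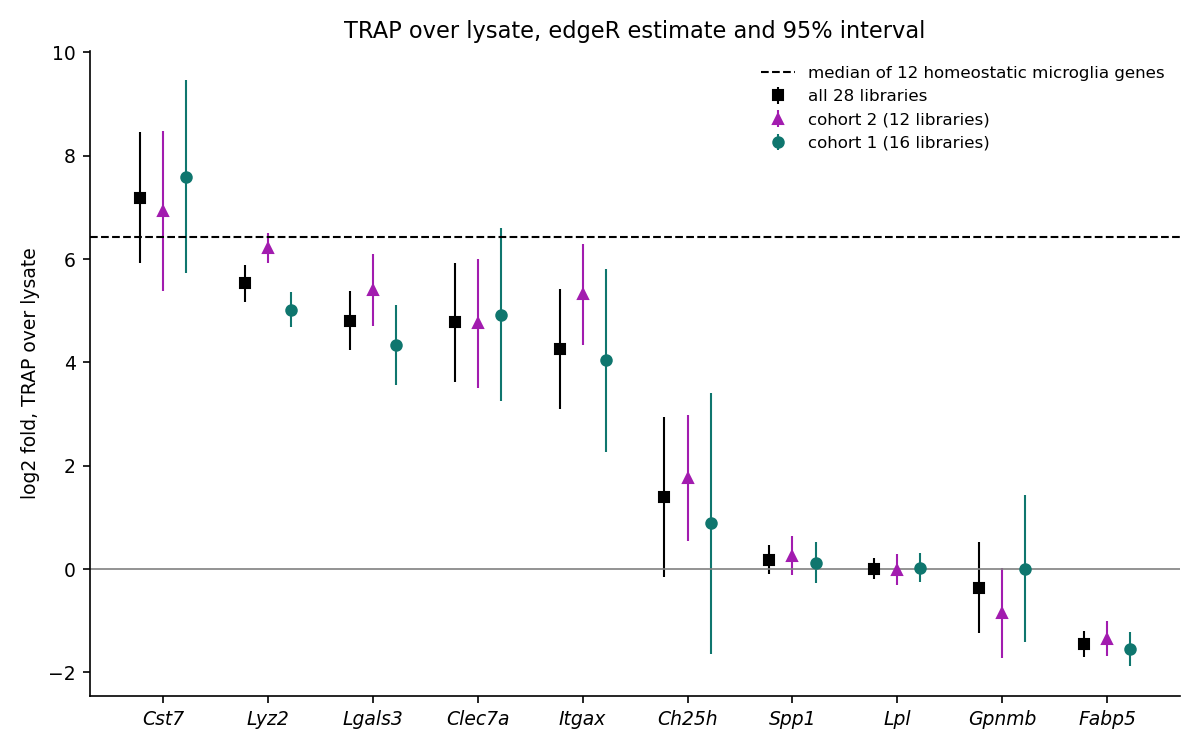
Log2 fold of TRAP over lysate for each gene, over all 28 libraries (squares), cohort 2 (triangles) and cohort 1 (circles), with 95% intervals; the dashed line is the median of the 12 homeostatic microglia genes, 6.42. Cst7, Lyz2, Lgals3, Clec7a and Itgax lie far above 0, Fabp5 lies below 0, and the intervals of Spp1 and Lpl are narrow around 0.

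Other genes of the disease-associated state were mostly higher in TRAP too. Of 32 tested, 28 were higher in TRAP and 2 were lower, with a median log2 fold of 4.45, against 34.0% of all genes called higher; Ctsl is also among the cystatin F targets. Cd74 (6.62), Cybb (6.61) and Trem2 (6.53 ± 0.17) were widest. The 2 lower genes were Fth1 (-1.30 ± 0.08), the heavy chain of ferritin, and Ank (-0.71 ± 0.08), a pyrophosphate transporter, and Csf1 and Hif1a were not called.

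The cohorts were also taken one at a time. In cohort 2, 6 of the 10 genes were higher and 1 lower in TRAP, where 32.0% of 17109 genes were called higher and 37.3% lower (69.3% either way). In cohort 1, 5 were higher and 1 lower, where 31.0% of 16543 genes were called higher and 32.9% lower (63.9% either way). The extra call was Ch25h, with a log2 fold of 1.77 ± 0.57 in cohort 2 (adjusted p 0.0133, edgeR) and 0.89 ± 1.20 in cohort 1 (adjusted p 0.534, edgeR); without run female 1 of cohort 2 it was 1.41 and no longer called (adjusted p 0.0768). Without run male 1 of cohort 1, the cohort 1 value of Ch25h was -2.44. Gpnmb stood at -0.85 in cohort 2 (adjusted p 0.0756) and at 0.0078 in cohort 1, and without home cage male 1 of cohort 2 it was -1.28 with an adjusted p of 0.0125.

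For genes with few lysate counts, single libraries set the size within a cohort. Cst7 had a log2 fold of 6.93 in cohort 2, or 7.73 without run female 2. In cohort 1 it was 7.60, or 10.6 without home cage female 2 and 10.2 without run female 2, the 2 cohort 1 mice with Cst7 counts in lysate. Itgax was at 5.32 in cohort 2 and at 4.04 in cohort 1, where it was 6.93 without run male 2. Clec7a was at 4.76 in cohort 2, or 5.60 without run male 1, and at 4.93 in cohort 1, or 6.13 without home cage female 2. Each of these values was called, with and without the library named.

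A difference of the TRAP over lysate ratio between cohorts was tested on its own, and 1 of the 10 genes, Lyz2, passed, where 8.39% of all genes were called higher in cohort 2 and 11.9% lower (20.2% either way). The log2 fold of Lyz2 was 6.22 ± 0.13 in cohort 2 and 5.02 ± 0.16 in cohort 1, a difference of 1.19 ± 0.19 (SE, adjusted p 6.2e-05, edgeR). The cohort difference of the level was 0.18 ± 0.13 in TRAP (adjusted p 0.218, edgeR) and -1.04 ± 0.13 in lysate (adjusted p 1.1e-06, edgeR). Lyz2 in lysate was 13.0 to 17.1 CPM with a median of 15.2 in cohort 2 (n = 6) and 20.5 to 39.7 CPM with a median of 31.0 in cohort 1 (n = 8), without overlap. In TRAP it was 978 to 1415 CPM with a median of 1101 in cohort 2 and 670 to 1218 CPM with a median of 998 in cohort 1, and these overlapped. Cx3cr1 also had a higher ratio in cohort 2, by 0.69 ± 0.17 (adjusted p 0.00407, edgeR), but there TRAP differed, at 1741 to 2252 CPM in cohort 2 and 966 to 1719 CPM in cohort 1, and the lysate values overlapped. Other homeostatic genes did not share this pattern. P2ry12 was lower in cohort 2 in TRAP (588 to 1734 CPM against 3087 to 6624) and in lysate (18.8 to 48.6 CPM against 59.6 to 95.6). Tmem119 was higher in cohort 2 in TRAP (4459 to 6326 CPM against 1270 to 2186) and in lysate (35.9 to 52.6 CPM against 16.0 to 30.1). The difference for Lgals3, 1.07 ± 0.45, was not called (adjusted p 0.0923). Among the other disease-associated genes 13 of 32 ratios were higher and 2 lower in cohort 2, among them Trem2 at 0.85 ± 0.23, and 3 of 12 homeostatic genes were higher.

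**Figure D3:**
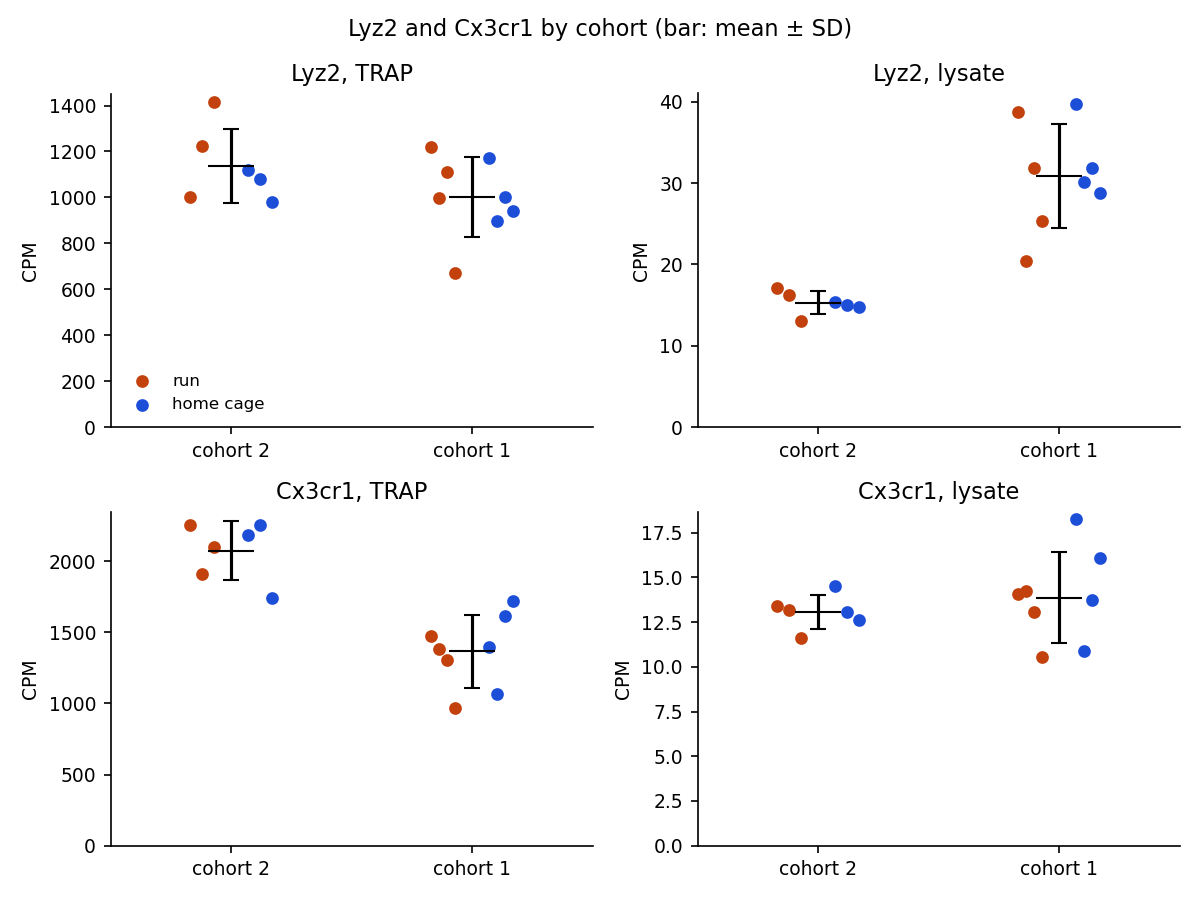
Level of Lyz2 and Cx3cr1 in TRAP and lysate libraries of cohort 2 and cohort 1, in CPM; points are libraries, run left and home cage right, and bars are mean ± SD of 6 and 8 libraries. Lyz2 differs between cohorts in lysate without overlap (13.0 to 17.1 CPM in cohort 2, 20.5 to 39.7 CPM in cohort 1), while Cx3cr1 differs in TRAP.

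Levels of several genes differed between the cohorts within a fraction. In TRAP, 2 of the 10 were higher in cohort 2 and 3 were lower, where 33.6% of 15203 genes were called higher and 31.6% lower (65.2% either way). Clec7a was 3.56 to 9.95 CPM in cohort 2 and 18.2 to 37.1 CPM in cohort 1, a log2 fold of -1.92 ± 0.23 (SE, adjusted p 6.7e-07, edgeR) without overlap. Lpl was 9.39 to 15.2 CPM in cohort 2 and 20.1 to 36.8 CPM in cohort 1, also without overlap (-1.05 ± 0.17, adjusted p 3.3e-05, edgeR). Spp1 was lower in cohort 2 as well (-0.81 ± 0.20), and Itgax (1.23 ± 0.28) and Lgals3 (0.94 ± 0.20) were higher, with overlapping libraries. In lysate 9 of the 10 genes were tested, since Cst7 was below the filter on low counts, and 0 were higher and 4 lower in cohort 2, where 36.3% of 16091 genes were called higher and 35.1% lower (71.4% either way). These were Lpl (-1.03 ± 0.10), Lyz2 (-1.04 ± 0.13), Spp1 (-0.98 ± 0.17) and Fabp5 (-0.25 ± 0.10), and the first 3 did not overlap between cohorts. Such separation was common: libraries of the cohorts did not overlap for 2 of the 10 genes and 41.5% of all genes tested in TRAP, and for 3 of the 9 and 48.9% in lysate.

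Across all genes the cohort difference rose with the GC content of the longest transcript, with Spearman's rho of 0.74 over 14650 genes in TRAP and 0.79 over 15482 genes in lysate; genes are not independent replicates. Set beside genes within 1 percentage point of GC, 7 of the 10 members in TRAP and 5 of the 9 in lysate lay within the middle quartiles. By definition the middle quartiles hold as many genes of like GC as lie outside them. These counts are near that share and do not set the members apart. Outside them were Itgax, Clec7a and Ch25h in TRAP, and Clec7a, Lgals3, Gpnmb and Lyz2 in lysate. Lpl (43.5% GC) was at -1.05 in TRAP beside a median of -0.99, and at -1.03 in lysate beside -0.96. Spp1 (43.3% GC) was at -0.81 in TRAP beside -1.01, and at -0.98 in lysate beside -0.97. Lgals3 (55.0% GC) was at 0.94 in TRAP beside 0.90. Clec7a (40.6% GC) was at -1.92 in TRAP beside -1.37, and Itgax (51.6% GC) at 1.23 beside 0.41. Lyz2 in lysate (48.3% GC) was at -1.04 beside -0.16, at the percentile 12.4 of 1659 genes of like GC. Lgals3 in lysate was at -0.16 ± 0.48 beside 0.95, with few counts behind it. The part of GC in these cohort differences was not tested.

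**Figure D4:**
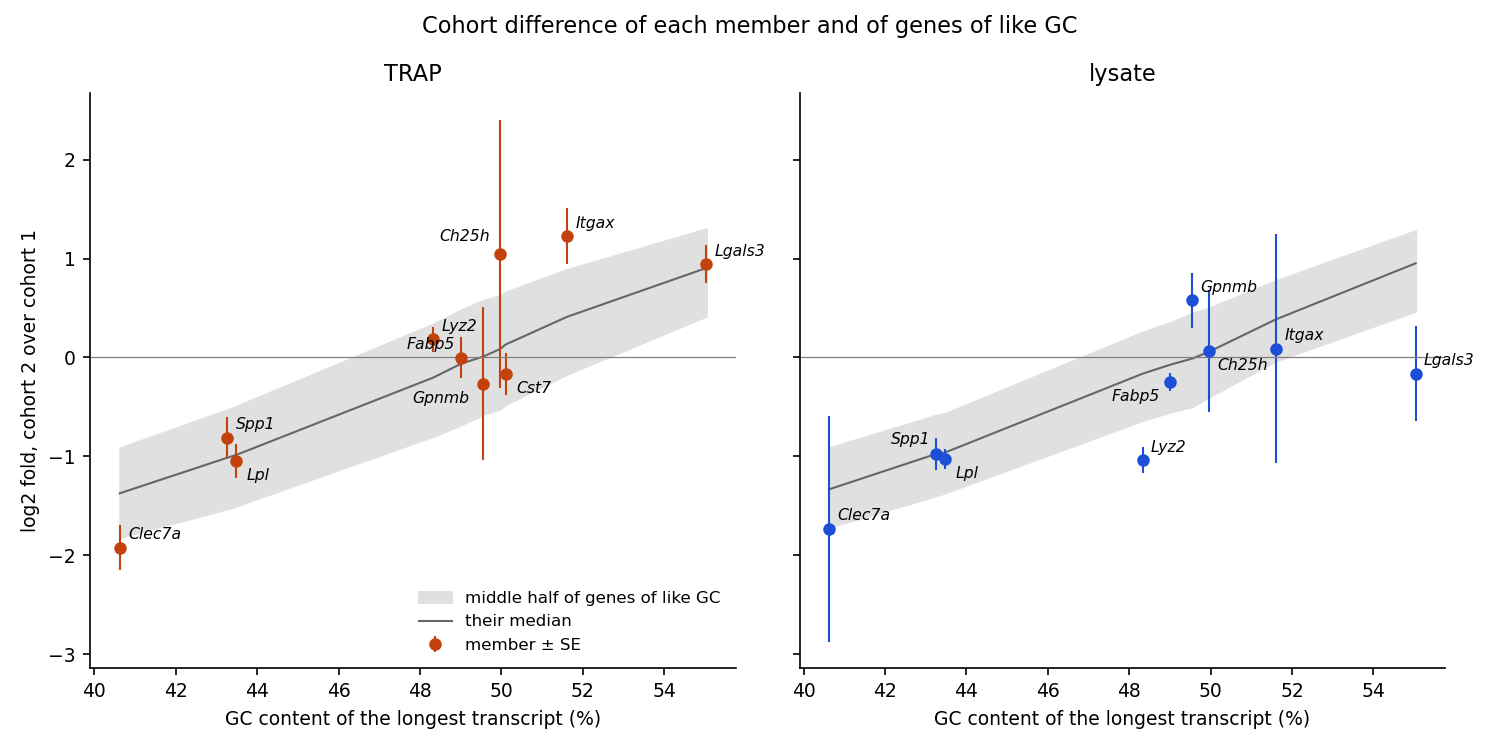
Log2 fold of cohort 2 over cohort 1 for each gene (points, ± SE) against GC content of its longest transcript in percent, in TRAP (left) and lysate (right), with the median (line) and the middle quartiles (grey) of genes within 1 percentage point of GC. Spp1 and Lpl lie near the line in both fractions. Lyz2 (-1.04) and Lgals3 (-0.16) in lysate lie below the grey band, at the percentiles 12.4 and 8.65 of genes of like GC.

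The comparison of run with home cage mice asks whether 1 h on a rotarod was followed by a change in these genes. None of the 10 was called in TRAP and none of the 9 tested was called in lysate (0 of 10 and 0 of 9 by edgeR's quasi-likelihood test; 0 of 10 and 0 of 9 at an unadjusted p under 0.05; 0 in both by DESeq2). Of all genes, 0.046% were called in TRAP and 0.0311% in lysate, so few calls were made among any genes. Run and home cage libraries overlapped for all 10 genes in each fraction and in each cohort. Few genes of any kind stood apart: the libraries did not overlap for 0.046% of all genes tested in TRAP and 0.0559% in lysate, and within cohorts for 9.1% (cohort 2) and 2.57% (cohort 1) in TRAP and 7.72% (cohort 2) and 3.36% (cohort 1) in lysate.

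Lyz2 had the narrowest interval of the 10 in TRAP. Lyz2 was 670, 1111 and 1415 CPM at the lowest, median and highest run library, against 897, 1001 and 1173 CPM in home cage, and its log2 fold was 0.080 ± 0.13 (95% interval -0.19 to 0.34). Lpl measured 9.39, 21.1 and 33.5 CPM in run mice and 14.0, 20.1 and 36.8 CPM in home cage mice, with a log2 fold of -0.12 ± 0.17. Clec7a measured 3.56, 18.2 and 37.1 CPM in run mice and 7.71, 23.3 and 36.9 CPM in home cage mice (-0.10 ± 0.21). For Cst7 the fold was -0.24 ± 0.21, for Lgals3 0.047 ± 0.19 and for Itgax -0.069 ± 0.28. The adjusted p was 0.999 for each of the 10 genes by edgeR.

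Spp1 and Fabp5 had the smallest unadjusted p of the 10 in TRAP, with errors of similar size to those of Cst7 and Clec7a. Spp1 was 9.99, 17.8 and 32.7 CPM at the lowest, median and highest run library, against 9.53, 14.0 and 24.4 CPM in home cage, a log2 fold of 0.37 ± 0.20 with an unadjusted p of 0.0778 (adjusted 0.999, edgeR). Fabp5 held 19.0, 33.5 and 53.2 CPM in run mice and 19.6, 23.5 and 38.7 CPM in home cage mice, a log2 fold of 0.31 ± 0.20. In cohort 2 alone, singled out after its values were seen, Fabp5 was at 25.7, 35.9 and 53.2 CPM in the 3 run mice and at 19.6, 22.8 and 27.6 CPM in the 3 home cage mice, a fold of 0.69 ± 0.28 with an unadjusted p of 0.0287 but an adjusted p of 0.927 (edgeR). The values of 35.9 CPM (male 1) and 53.2 CPM (female 2) came from the mice whose Y-linked level went against the label. The remaining run mouse, at 25.7 CPM, lay within the home cage range. In cohort 1 the fold of Fabp5 was 0.025 ± 0.26.

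Gpnmb and Ch25h, whose TRAP estimates were farthest from 0 and had the widest errors, were uneven, Gpnmb among run mice and Ch25h in both groups. Gpnmb in TRAP was 0.0365, 0.103, 3.67 and 5.48 CPM in the 4 run mice of cohort 1, against 0.803, 1.01, 1.05 and 1.30 CPM in the 4 home cage mice. The run mice lay on both sides of the home cage mice, and over both cohorts the log2 fold was 1.07 ± 0.77. Ch25h in TRAP was 0, 0, 0.00861 and 1.35 CPM in the run mice of cohort 1, against 0, 0.547, 2.71 and 3.36 CPM in the home cage mice. In cohort 2 its mean was higher in run mice. There it was 0.277, 2.06 and 2.93 CPM in run mice and 0.362, 1.09 and 2.14 CPM in home cage mice. The log2 fold of Ch25h over both cohorts was -1.11 ± 1.36.

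In lysate the folds of the abundant genes were also near 0: Fabp5 0.062 ± 0.094, Lpl -0.082 ± 0.099, Lyz2 -0.074 ± 0.13 and Spp1 0.16 ± 0.16. Gpnmb was at -0.48 ± 0.28 (unadjusted p 0.102), with 0.785 to 2.92 CPM in run and 1.24 to 3.00 CPM in home cage libraries. Itgax (-1.06 ± 1.20), Clec7a (0.25 ± 1.09), Ch25h (-0.49 ± 0.62) and Lgals3 (0.071 ± 0.48) had wider errors. Their lysate libraries held at most 252 counts each, and the part of low counts in these errors was not tested. Whether the run change differed between TRAP and lysate was tested for all 10, and 0 were called, as 0.0% of all genes were; the widest estimates were Gpnmb at 1.54 ± 0.86 and Itgax at 1.31 ± 1.04, named after their values were seen. The difference of the run change between cohorts was also called for 0 genes in either fraction.

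**Figure D5:**
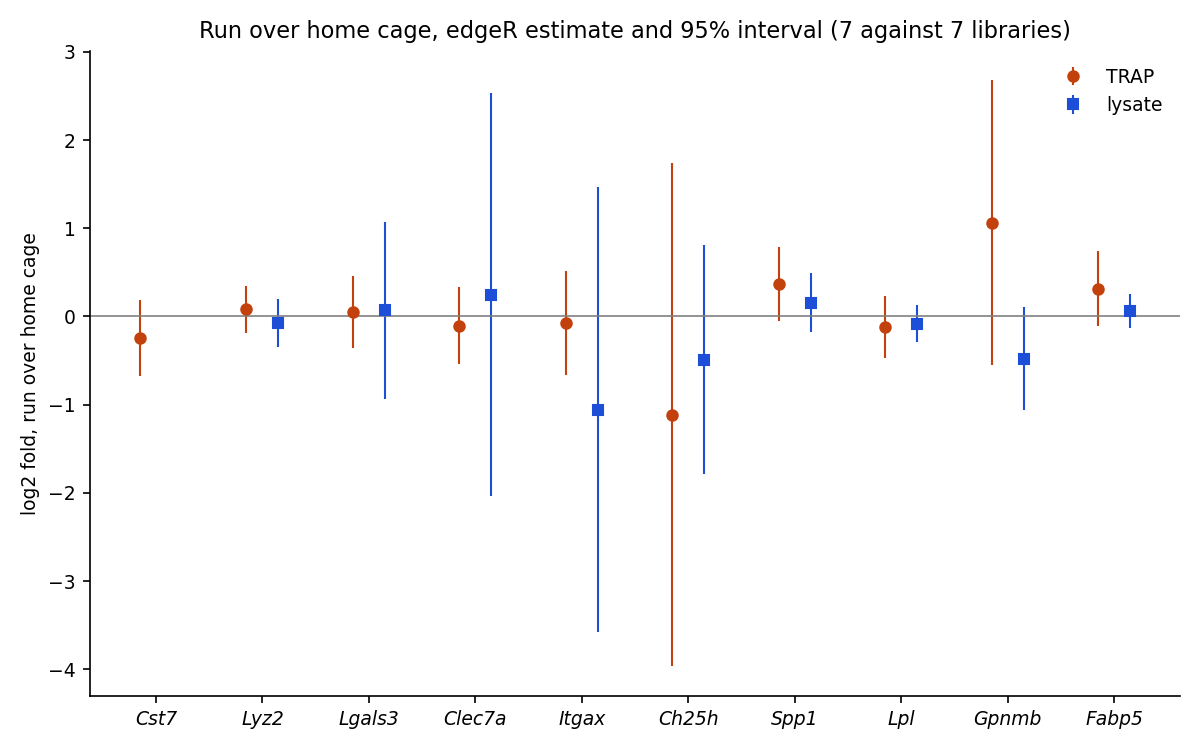
Log2 fold of run over home cage for each gene in TRAP (circles) and lysate (squares), with 95% intervals from 7 against 7 libraries; Cst7 in lysate was below the filter on low counts. Every interval includes 0, and the widest are those of Ch25h and Gpnmb in TRAP and of Itgax and Clec7a in lysate.

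The other disease-associated genes gave the same count: 0 of 32 were called between run and home cage in TRAP and 0 of 31 in lysate, with median log2 folds of -0.035 in TRAP and 0.041 in lysate. The 12 homeostatic genes had medians of -0.090 in TRAP and -0.10 in lysate, with 0 called. Their summed TRAP level was 28853 ± 7362 CPM in run mice and 29031 ± 6573 CPM in home cage mice (SD, n = 7 each).

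Correlations among the 10 genes were taken across TRAP libraries, with no comparison to pairs of other genes. Over the 14 libraries, centred within cohort, the 45 pairs had a median Pearson r of 0.19, from -0.52 for Lpl with Fabp5 to 0.55 for Cst7 with Ch25h, and 31 were positive. The genes most alike among 13471 expressed genes were Hfe (r 0.93) and Rgs10 (0.90) for Lyz2, Lmnb1 (0.88) for Cst7, Tmem8b (0.93) for Clec7a, St3gal1 (0.94) for Gpnmb, A930005H10Rik (0.94) for Fabp5 and Ddx51 (0.87) for Spp1. These are descriptions over 14 libraries that share depth and composition, drawn as the highest of many, with no test.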

How the data were processed

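The authors deposited 1 table of unnormalised counts for each gene in 28 libraries, and 0 columns were left without a sample. The submitters' processing notes name STAR 2.7.7a, featureCounts, DESeq2 and GRCm38. Annotation, strand setting and treatment of multi-mapping reads were not given in the sources used here. Counts of 1 to 100 were even in 66.0 to 73.0% of cases per library, and whether a count stands for a read or a pair is not given. Floors cover counting error only. No 2 libraries of a group agreed within sampling noise (lowest chi-square per degree of freedom 69.6, over 84 pairs).

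Printed levels are CPM scaled by TMM over all 28 libraries, and CPM per kb of union exons in GENCODE M21. Tests used edgeR 4.0.16 in R 4.3.3: quasi-likelihood, TMM, filterByExpr by group, cohort as a term, Benjamini-Hochberg over all tested genes at 0.05, and were checked on simulated data. The simulated libraries had few changed genes, no cohort effect and no pairing within a mouse. That check therefore does not cover these features of the data. Alternatives were DESeq2 1.42.0, RLE size factors, no filter, no cohort term, the mouse as a block, and leaving out mice. Columns with no cohort mark were taken as cohort 1. TRAP and lysate libraries of a mouse correlated in deviations at -0.38 to 0.29, over 0.1 in 5 of 14 mice; they come from the same mouse. The genes and lists were chosen with earlier results of these data known. Named genes were the 10, up to 3 genes per list by smallest p, further list members chosen after their values were seen, and the most alike genes by r.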

Additional observations from a re-analysis of the deposited data

Results flagged for a closer look

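Cst7 and Clec7a in lysate were far from the other home cage libraries in 1 mouse, female 2 of cohort 1. There Cst7 was at 0.341 CPM, while the next of 7 home cage lysate libraries was at 0.135 CPM. Clec7a was at 2.39 CPM in the same library, while the next was at 0.687 CPM. In both genes the gap exceeded Dixon's 95% critical value for 7 samples, 0.568 of the range; of 40 groups tested 2 exceeded theirs, and chance gives about 1 in 20. The TRAP library of that mouse held the highest Cst7 (17.9 CPM) and Clec7a (36.9 CPM) of the home cage group.

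The TRAP over lysate ratio of Lyz2 differed between cohorts, by 1.19 on the log2 scale (higher in cohort 2; adjusted p 6.2e-05, edgeR), with RLE size factors 1.26 and with DESeq2 1.26.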

How the results depend on the processing

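Cst7, Itgax and Clec7a had 0 to 252 counts per lysate library, and the size of their ratios, but not their calls, moved. The calls of the 6 genes that passed between TRAP and lysate held under all alternatives run. Lpl, near 0 throughout, was at -0.026 with RLE size factors, -0.027 with DESeq2, -0.0065 with the mouse as a replicate block, -0.080 in run mice only, and -0.11 to 0.055 with 1 mouse left out. Gpnmb was at 0.33 in run mice only. The replicate block on the mouse gave 5464 genes higher and 7151 lower in TRAP, with 6 members called, and changed no call of a member: Gpnmb was at -0.84 (adjusted p 0.152), Ch25h at 0.28 (adjusted p 0.837). Alternatives added after seeing the data, leaving 1 mouse out within a cohort, gave Lpl -0.12 to 0.047 in cohort 2, and Spp1 -0.013 to 0.27, Lpl -0.11 to 0.12, Gpnmb -0.49 to 0.41 and Ch25h -2.44 to 1.76 in cohort 1. The cohort difference of the Lpl ratio, also added, was 0.028 with RLE and 0.028 with DESeq2, against -0.041.

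Between run and home cage, DESeq2 called 33 genes higher and 6 lower in TRAP, 28 and 10 in lysate, and 17 and 10 for the difference between fractions, where edgeR called 7 and 0, 5 and 0, and 0 and 0. With no cohort term 0 were called higher in TRAP and 0 in lysate, and without the 2 mice whose Y-linked level goes against the label 0 were called higher in lysate. With 1 mouse left out, 3 (without home cage female 1 of cohort 1) to 8 genes were called higher in TRAP, 0 to 9 in lysate and 0 to 1 for the difference. Within cohorts it was 0 to 1 in TRAP of cohort 2, 0 to 3 in TRAP of cohort 1 and 0 to 2 in lysate of cohort 1. No member was called under any of these. Signs of folds near 0 turned: without the 2 mice above, Clec7a was at 0.057, Lpl at 0.0096 and Lgals3 at -0.020 in TRAP; with 1 mouse left out, Itgax ran from -0.19 to 0.069, Clec7a from -0.18 to 0.026 and Lgals3 from -0.033 to 0.24 in TRAP, and Clec7a from -0.066 to 1.39, Lgals3 from -0.28 to 0.22 and Lyz2 from -0.15 to 0.0059 in lysate. The difference of the run change between fractions turned sign too: without the 2 mice above it was 1.13 for Cst7, 0.064 for Lpl and -0.085 for Lyz2, with the mouse as a replicate block it was 0.13 for Lgals3, and with 1 mouse left out it ran from -1.20 to 0.74 for Cst7, -0.11 to 0.059 for Lpl, -0.28 to 0.38 for Lgals3 and -0.80 to 0.41 for Ch25h. With 1 library left out, an alternative added after seeing the data, the run fold of Fabp5 in TRAP of cohort 1 ran from -0.15 to 0.19. The cause was not tested.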
